A study of Saccharomyces cerevisiae with 5 samples.

Results

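Single deletions in budding yeast of ARP5 or IES6 were set against single deletions of INO80 or ARP8, all genes for subunits of the nucleosome remodeller INO80: arp5d and ies6d form one side, ino80d and arp8d the other. The comparison uses 4 of the 5 strains of the study, chosen by their labels alone. The fifth strain, the wild type (WT), entered only the filter on low values, and its level is given beside the mutants for orientation. The quantity compared is FPKM of poly(A) RNA, by definition fragments per kilobase scaled to the mapped fragments. How the deposited values were scaled between strains is not given.

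By the labels, WT is BY4741, a MATa strain with the alleles written his31, leu20, met150 and ura30. Each mutant is BY4741 with LEU2 in place of the deleted gene: ino80::LEU2, arp8::LEU2, arp5::LEU2 or ies6::LEU2. All 5 strains were grown without synchronisation in rich medium at 30 °C and taken in mid-log phase. Each has 1 deposited value per gene, which stands for 2 biological replicates, so no replicate error exists and nothing was tested. The labels give 1 strain per deletion and do not say whether its replicates came from separate clones. Different mutants are not replicates of a condition. The only yardsticks in the table are the distances between the mutants of one side, and they hold true differences between mutants as well as noise.

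INO80 is an ATP-driven machine that slides and edits nucleosomes near gene starts. Ino80 is its motor and scaffold. Arp5 and Ies6 bind each other and form a module on the motor, which couples ATP hydrolysis to movement of the nucleosome. Arp8, with actin and Arp4, sits in another module that contacts the DNA entering the nucleosome, and deletion of INO80 removes the scaffold of both modules. The comparison therefore sets loss of the Arp5-Ies6 module against loss of the motor or of Arp8.

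Each of the 4 deleted genes lay below 1 FPKM in its own strain, at 0.0257 FPKM for INO80, 0.0986 FPKM for ARP8, 0.0687 FPKM for ARP5 and 0.211 FPKM for IES6. Another marker split the strains exactly as the comparison does. MET17 (YLR303W, also called MET15, chromosome XII 732542 to 733876) encodes the O-acetylhomoserine sulfhydrylase that fixes sulfide into homocysteine, and its deletion is part of the BY4741 genotype. MET17 was listed at 0.482 FPKM in WT, 0.201 FPKM in arp5d and 0.571 FPKM in ies6d, but at 807 FPKM in the library labelled ino80d and 564 FPKM in the library labelled arp8d. The last 2 libraries therefore go against the met150 allele of the parent named in their labels. Effects of the deleted subunits and of MET17, or of anything else inherited with it, cannot be told apart in any result of this comparison. No comparison of the sides without these libraries exists, because they are the whole of one side. LYS2, the reductase of lysine synthesis, crossed the split instead: it lay at 0.0138 FPKM in ino80d and 0.0390 FPKM in arp5d, but at 32.3 FPKM in arp8d and 25.01 FPKM in ies6d, with WT at 36.9 FPKM. The genotype given for BY4741 names no lys2 allele, so the libraries labelled ino80d and arp5d go against their labels here.

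Features were kept at a mean of at least 5 FPKM across the 5 strains, with a value above 0 in all 5. Of 6567 features, 6150 were kept. Differences are on the scale of log2(FPKM + 1), which understates changes of low genes. The group difference is the mean of arp5d and ies6d minus the mean of ino80d and arp8d. A feature was called when each of the 4 cross pairs (1 strain from each side) differed by at least 1.5-fold in the same direction. Library depth is unknown, so no counting error can be given. The sum of FPKM ran from 2774103 in arp8d to 3711718 in ies6d, and the medians of all features from 53.6 to 54.7 FPKM in the mutants. MFA1, which encodes the a-factor pheromone from a very short gene, made up 7.01% of the sum in arp8d, 19.8% in ino80d, 14.7% in arp5d and 17.1% in ies6d.

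The sides were barely separate across the transcriptome. Between the mutants of one side, ies6d and arp5d were at least 1.5-fold apart in 193 features (3.14% of those kept), and ino80d and arp8d in 439 (7.14%). Across the sides, arp5d and ino80d were that far apart in 206 features (3.35%), arp5d and arp8d in 320 (5.2%), ies6d and ino80d in 368 (5.98%) and ies6d and arp8d in 389 (6.33%). The pair ino80d and arp8d thus differed in more features than any cross pair. By the SD of the log2 difference over features the order was not the same: ino80d and arp8d stood at 0.356, below ies6d against ino80d (0.368) and ies6d against arp8d (0.362). The SD was lowest for ies6d and arp5d, at 0.283, with arp5d and ino80d next at 0.299.

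**Figure D1:**
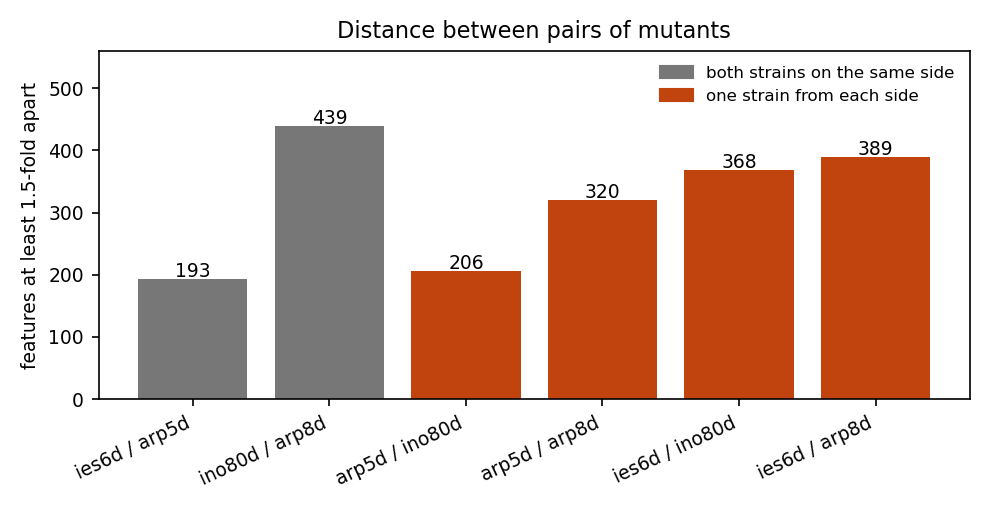
Number of features at least 1.5-fold apart (vertical axis, of 6150 kept) in each of the 6 pairs of mutants (horizontal axis), 1 value per strain. Grey bars are pairs from one side of the comparison and red bars pairs across it; the grey bar for ino80d and arp8d, at 439, is above all 4 red bars, and that for ies6d and arp5d, at 193, is below them.

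The widest gaps within each side were in genes other than those that parted the sides. Apart from the deleted genes and LYS2, the features farthest apart between ies6d and arp5d included IMD2, an IMP dehydrogenase of guanine nucleotide synthesis, at 19.0 FPKM in ies6d and 2.94 FPKM in arp5d. TKL2, a transketolase, lay at 9.41 FPKM in ies6d and 22.9 FPKM in arp5d. In ino80d and arp8d, IMD2 lay at 7.77 and 39.9 FPKM, and TKL2 at 19.0 and 8.64 FPKM. Both genes thus sorted with LYS2 RNA: in ino80d and arp5d, which lack it, IMD2 was lower and TKL2 higher. On chromosome II, LYS2 spans 469748 to 473926 and TKL2 spans 474392 to 476437. Effects of LYS2 and of the deletions cannot be told apart in these gaps. Between ino80d and arp8d, CHA1, the serine and threonine deaminase, lay at 375 FPKM and 10.4 FPKM. With CHA1 at 410 FPKM in arp5d and 510 FPKM in ies6d, arp8d alone was low. COS1, of a subtelomeric gene family, lay at 3.74 FPKM in ino80d and 26.2 FPKM in arp8d.

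Across all kept features the group difference had a median of 0.00 and an SD of 0.258. Its mean passed 1.5-fold in 123 features (2%), but all 4 cross pairs did so in only 10. Of these, 7 were higher in arp5d and ies6d (0.114% of kept features) and 3 were lower (0.0488%). Among the 7 higher ones were 3 annotated open reading frames (ORFs) of at least 300 bp, which were URA1, HSP30 and YIR042C. Among the 3 lower ones were 2, MET17 and SPO19. With every strain scaled to the same sum of FPKM, the split turned to 4 higher and 21 lower. That scaling moved the median of all kept features to -0.25.

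**Figure D2:**
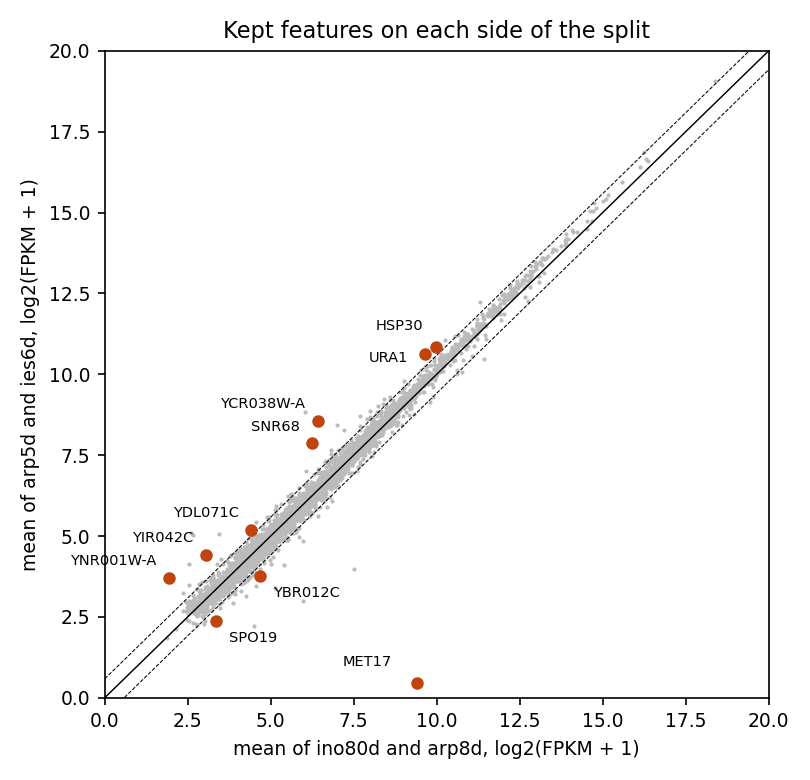
Mean of arp5d and ies6d (vertical axis) against mean of ino80d and arp8d (horizontal axis), both in log2(FPKM + 1), for the 6150 kept features. Red points are the 10 called features, the solid line is equality and the dashed lines are 1.5-fold; MET17 lies far below the line, and most other features lie between the dashed lines.

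URA1 (YKL216W, chromosome XI 25215 to 26159) encodes dihydroorotate dehydrogenase, which makes orotate in the synthesis of pyrimidines. It lay at 820 FPKM in ino80d and 791 FPKM in arp8d, against 1503 FPKM in arp5d and 1690 FPKM in ies6d, with WT at 1661 FPKM. The level in arp5d and ies6d was thus near that of WT, and ino80d and arp8d stood apart as the low strains. The group difference was 0.98 on the log2 scale (1.98-fold), and the smallest of the 4 cross pairs was 0.87. With strains scaled to the same sum of FPKM the group difference was 0.73, and URA1 was still called. Within the sides URA1 differed far less, as the values show. Its neighbours did not follow: JEN1, the lactate permease, had a group difference of 0.04 and OXP1, 5-oxoprolinase, one of -0.05.

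URA4 (YLR420W, chromosome XII 963785 to 964879) encodes dihydroorotase, the enzyme of the step before URA1. It lay at 283 FPKM in ino80d, 258 FPKM in arp8d, 418 FPKM in arp5d and 376 FPKM in ies6d, with WT at 456 FPKM. The sides did not overlap and ino80d and arp8d were again the low strains, but the smallest cross pair, 0.41, stayed under 1.5-fold. The group difference was 0.55. FUR4, the uracil permease, lay at 20.6 FPKM in ino80d, 19.7 FPKM in arp8d, 26.0 FPKM in arp5d and 24.7 FPKM in ies6d. FUI1, the uridine permease, is outside the list and was picked after its values were seen. It lay at 62.7 FPKM in ino80d, 71.6 FPKM in arp8d, 98.7 FPKM in arp5d and 90.002 FPKM in ies6d, so that all 4 cross pairs passed 1.25-fold.

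The rest of the pathway moved little. Of 10 kept genes of the pyrimidine list, 7 were higher in arp5d and ies6d in all 4 cross pairs at any size (70.0%), and none was lower. URA3 is not among these 10 genes, so the ura30 allele of the labels was not checked in any strain. Over all kept features 20.2% were higher and 18.8% lower by the same rule. The median group difference of the list was 0.22, and -0.04 with strains scaled to the same sum of FPKM, where that of all features was -0.25. Without ies6d it was 0.12, with 7 genes higher (70%, against 30.65% of all features) and 3 lower (30%, against 29.15%). Without the genes of chromosomes I, III and XI, URA1 among them, it was 0.14. URA5, the main orotate phosphoribosyltransferase, lay between 589 and 612 FPKM in all 4 mutants. URA2, which carries out the first steps of the pathway, lay between 57.1 and 62.5 FPKM with the sides overlapping. Only URA1 and URA4 passed 1.25-fold in all 4 cross pairs, a rule added after the data were seen. Over all kept features that rule named 53 as higher (0.862%) and 41 as lower (0.667%).

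URA1 and URA4 are known targets of the activator Ppr1, which binds a pair of CGG triplets facing each other. The promoters below are shown because both hold that spacing, written CGGNNNNNNCCG and searched in the 250 bases before to 50 after each gene start on both strands, which are the same for this motif. ORM2 and RIB4 are shown because they were the other genes past 1.25-fold that hold it. Capitals mark matches to this motif, and also TGACTC (as GAGTCA on the opposite strand) in URA4 and TGAAACA in ORM2. The sequences were read from the RefSeq R64 genome at chrXI:24965-25264 (URA1, plus strand), chrXII:963535-963834 (URA4, plus strand), chrXII:828480-828779 (ORM2, plus strand) and chrXV:55055-55354 (RIB4, minus strand).
URA1: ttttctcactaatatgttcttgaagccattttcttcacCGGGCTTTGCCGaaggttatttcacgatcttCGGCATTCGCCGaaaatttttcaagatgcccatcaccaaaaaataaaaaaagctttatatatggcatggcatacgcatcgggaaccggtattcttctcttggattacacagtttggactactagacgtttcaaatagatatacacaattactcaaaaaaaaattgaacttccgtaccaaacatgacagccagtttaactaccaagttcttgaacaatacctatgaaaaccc
URA4: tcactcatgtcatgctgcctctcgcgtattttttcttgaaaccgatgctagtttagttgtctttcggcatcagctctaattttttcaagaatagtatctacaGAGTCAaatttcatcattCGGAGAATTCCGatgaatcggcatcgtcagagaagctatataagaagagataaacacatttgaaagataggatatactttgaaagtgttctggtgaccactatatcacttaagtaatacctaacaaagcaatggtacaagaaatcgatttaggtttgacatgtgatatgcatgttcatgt
ORM2: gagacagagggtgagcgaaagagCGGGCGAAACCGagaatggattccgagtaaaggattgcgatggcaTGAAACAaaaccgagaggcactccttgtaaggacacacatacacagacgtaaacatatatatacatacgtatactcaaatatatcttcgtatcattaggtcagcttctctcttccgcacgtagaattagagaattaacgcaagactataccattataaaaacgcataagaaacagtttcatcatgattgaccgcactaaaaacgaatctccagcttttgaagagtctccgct
RIB4: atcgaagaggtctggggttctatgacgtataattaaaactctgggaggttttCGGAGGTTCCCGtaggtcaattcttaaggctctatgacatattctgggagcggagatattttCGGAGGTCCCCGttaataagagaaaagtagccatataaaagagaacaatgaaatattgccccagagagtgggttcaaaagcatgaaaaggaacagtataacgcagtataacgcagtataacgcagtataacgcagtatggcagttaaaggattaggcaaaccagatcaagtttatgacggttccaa

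In URA1 the motif stood at -212 and -181 from the gene start, as CGGGCTTTGCCG and CGGCATTCGCCG. In URA4 it stood once, at -130, as CGGAGAATTCCG. It was found in 4 of 35 promoters of genes past 1.25-fold higher in all 4 cross pairs (11.4%), in 0 of 28 of those lower, and in 72 of the 5613 promoters of kept genes (1.28%). These matches describe letters only, and the motif was chosen after URA1 and URA4 had been seen to differ. ORM2, a regulator of sphingolipid synthesis, lay at 422 FPKM in ino80d, 391 FPKM in arp8d, 545 FPKM in arp5d and 552 FPKM in ies6d. Unlike the URA genes, ORM2 was above its WT level of 289 FPKM in all 4 mutants. RIB4, the lumazine synthase of riboflavin synthesis, was picked for its motif after its values were seen. Of the other motifs searched, AGGGG was in 9 of 35 higher and 7 of 28 lower promoters against 21.8% of all, and CCAAT in 51.4% and 42.9% against 44.1%. CACGTG was in 5.71% and 0% against 2.98%, and CTGTGGC in 2.86% and 0% against 1.94%. TGACTC was in 2.86% of the higher and 17.9% of the lower promoters against 8.25% of all, and TGAAACA in 5.71% and 21.4% against 7.34%.

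HSP30 (YCR021C, chromosome III 156109 to 157107) encodes a heat shock protein of the plasma membrane that restrains the proton pump. It lay at 1009 FPKM in ino80d, 989 FPKM in arp8d, 1582 FPKM in arp5d and 2117 FPKM in ies6d, with WT at 29.8 FPKM. All 4 mutants were far above WT, and the sides did not overlap. The group difference was 0.87 (1.83-fold) and the smallest cross pair 0.65. Under equal-sum scaling the group difference was 0.61 and HSP30 was no longer called. HSP30 lies on chromosome III, whose genes as a whole stood 0.18 above the mean of the mutants in ies6d. The group difference of HSP30 without ies6d was 0.66. Its neighbours HTL1, a subunit of the RSC remodeller, and YCR022C had group differences of 0.06 and -0.07.

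YIR042C (chromosome IX 435273 to 435983), a protein whose role is not established, had the largest group difference among the 3 annotated ORFs of at least 300 bp that were called higher. It lay at 5.60 FPKM in ino80d, 9.21 FPKM in arp8d, 18.4 FPKM in arp5d and 22.9 FPKM in ies6d, with WT at 22.8 FPKM. As with URA1, arp5d and ies6d were near WT and the other side was low. The group difference was 1.39 (2.62-fold). The nearest kept annotated gene, YPS6, an aspartic protease of the cell surface, ends at 432111 and had a group difference of 0.16. No kept annotated gene lay between YIR042C and the end of chromosome IX at 439888.

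The other 4 higher features were short or are not in the annotation used. YNR001W-A lay at 2.89 and 2.83 FPKM in ino80d and arp8d and at 11.2 and 13.0 FPKM in arp5d and ies6d. YCR038W-A lay at 132 FPKM in ino80d, 54.3 FPKM in arp8d, 519 FPKM in arp5d and 273 FPKM in ies6d, with a wide spread within each side. YDL071C lay at 20.2, 20.4, 34.6 and 36.5 FPKM in ino80d, arp8d, arp5d and ies6d. The small nucleolar RNA snR68, a guide for methylation of ribosomal RNA, lay at 149 FPKM in ino80d, 37.6 FPKM in arp8d, 240 FPKM in arp5d and 226 FPKM in ies6d. A poly(A) library captures such RNAs poorly. Just inside the threshold were snR68, with a smallest cross pair of 1.52-fold, and HSP30, with 1.57-fold. Just outside were RUF23 at 1.46-fold and YPR160C-A at 1.43-fold.

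**Figure D3:**
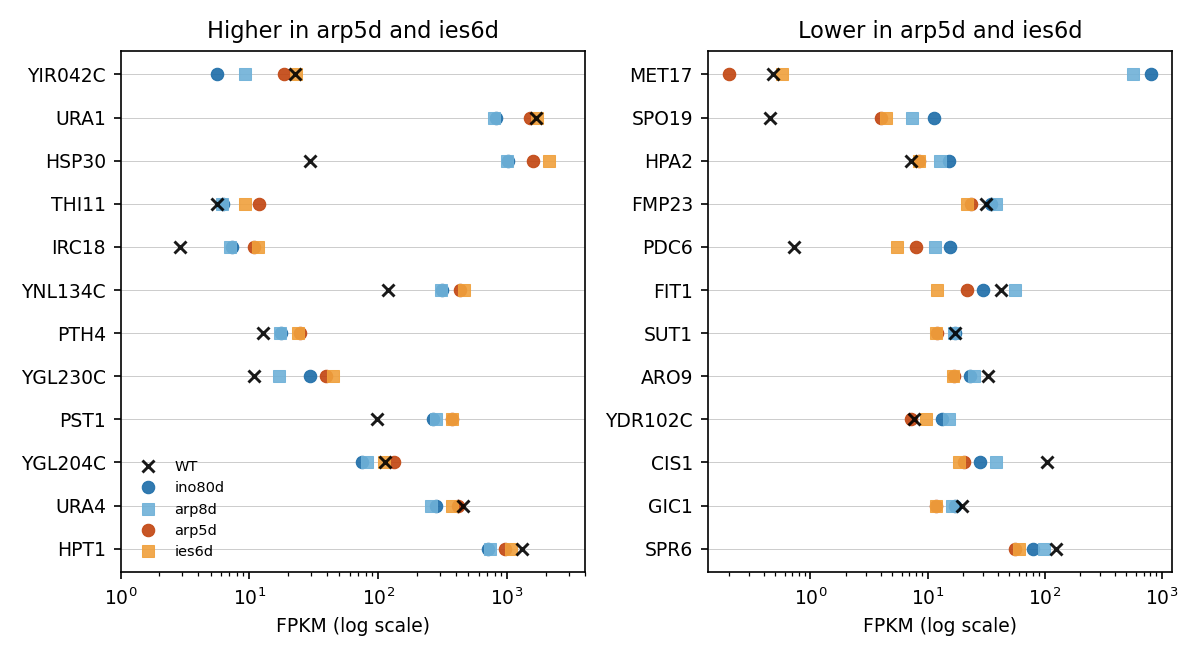
FPKM (horizontal axis, log scale) in each strain for the 12 ORFs with the largest smallest cross pair in each direction (vertical axis); each point is the 1 value of a strain, and WT is a cross. URA1 and YIR042C have WT beside arp5d and ies6d, whereas HSP30 has WT far to the left of all mutants; MET17 is below 1 FPKM in WT, arp5d and ies6d.

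On the lower side MET17 stood alone in size, with a group difference of -8.94 and a smallest cross pair of 8.49. YLR302C, which overlaps MET17 by 12 bases and was outside the filter, was listed at 0 in WT, arp5d and ies6d and at 3.25 and 3.87 FPKM in ino80d and arp8d. The kit does not mark strand, so reads of the pair cannot be told apart. SPO19 (YPL130W, chromosome XVI 304387 to 305058), a prospore membrane protein of meiosis, lay at 11.4 FPKM in ino80d, 7.42 FPKM in arp8d, 3.99 FPKM in arp5d and 4.46 FPKM in ies6d, with WT at 0.453 FPKM. All mutants were above WT, and ino80d and arp8d were the higher ones. The group difference was -0.97, and with a pseudocount of 5 FPKM SPO19 was no longer called. YBR012C, not in the annotation used, lay at 22.5, 27.1, 13.0 and 12.2 FPKM in ino80d, arp8d, arp5d and ies6d. SPO19 and YBR012C were the features just inside the threshold, with smallest cross pairs of 1.54-fold and 1.68-fold. Just outside were YGL182C at 1.49-fold and YPL038W-A at 1.49-fold.

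The other genes of sulfur metabolism did not follow MET17. Of 37 kept genes for sulfate assimilation and methionine synthesis, 9 were higher (24.3%) and 5 lower (13.5%) in all 4 cross pairs at any size, close to the shares of all features. The median group difference was 0.02. MET17 alone passed 1.25-fold. MET14, the adenylylsulfate kinase, lay at 130 FPKM in ino80d, 104 FPKM in arp8d, 183 FPKM in arp5d and 148 FPKM in ies6d. MET3, the ATP sulfurylase, had 43.4, 40.4, 61.6 and 50.1 FPKM, strain by strain as for MET14. Both were highest in arp5d and ies6d, and they had the highest group differences of the list. Other genes of sulfate reduction overlapped between the sides, such as MET16 (group difference -0.09), MET10 (-0.17) and MET5 (0.06). WT had 116 FPKM of MET14 and 35.8 FPKM of MET3. PDC6, a minor pyruvate decarboxylase known to rise when sulfur is short, was lower in arp5d and ies6d. PDC6 lay at 15.6 FPKM in ino80d, 11.7 FPKM in arp8d, 8.01 FPKM in arp5d and 5.53 FPKM in ies6d. WT, with MET17 at 0.482 FPKM, had 0.719 FPKM of PDC6, below all 4 mutants. Whether sulfur supply differed between the strains was not tested. CACGTG, the site of Cbf1, was in 27.0% of the promoters of the list and CTGTGGC, the site of Met31 and Met32, in 16.2%.

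Below the threshold, the higher ORFs ranked next by smallest cross pair were THI11, IRC18, YNL134C, PTH4, YGL230C, PST1, YGL204C, URA4, HPT1, MCD4, ORM2 and HSP104. THI11, an enzyme for the pyrimidine part of thiamine, has near-identical copies and its value is uncertain. PST1, a cell wall protein, lay at 268 FPKM in ino80d, 278 FPKM in arp8d, 372 FPKM in arp5d and 371 FPKM in ies6d, against 98.3 FPKM in WT. HSP104, the disaggregase, had 242 FPKM in ino80d, 235 FPKM in arp8d, 310 FPKM in arp5d and 345 FPKM in ies6d, against 64.9 FPKM in WT. Both were above WT in all mutants and highest in arp5d and ies6d. HPT1, which salvages hypoxanthine and guanine, lay at 709, 740, 960 and 1081 FPKM and was below its WT level of 1315 FPKM in all 4. MCD4, of GPI anchor synthesis, lay at 32.4, 33.7, 43.9 and 44.4 FPKM, with WT at 42.5 FPKM beside arp5d and ies6d.

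The next lower ORFs were HPA2, FMP23, PDC6, FIT1, SUT1, ARO9, YDR102C, CIS1, GIC1, SPR6, YIL055C, SPS18 and MCH5. HPA2, a histone acetyltransferase, lay at 15.3 FPKM in ino80d, 12.9 FPKM in arp8d, 8.44 FPKM in arp5d and 8.40 FPKM in ies6d, with WT at 7.22 FPKM. Here arp5d and ies6d were near WT and the other side was high. ARO9, the aromatic aminotransferase of amino acid breakdown, had 23.0 FPKM in ino80d, 24.7 FPKM in arp8d, 16.7 FPKM in arp5d and 16.6 FPKM in ies6d, and 32.7 FPKM in WT. MCH5, the riboflavin transporter, lay at 44.7, 55.3, 33.7 and 32.9 FPKM, with WT at 80.2 FPKM. For ARO9 and MCH5 all 4 mutants were below WT, with arp5d and ies6d the lowest.

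WT had no fixed place relative to the sides. Of the 53 features past 1.25-fold higher, WT was nearer to arp5d and ies6d in 19 (35.8%) and nearer to ino80d and arp8d in 34. Of the 41 lower ones it was nearer to arp5d and ies6d in 18 (43.9%). Over all kept features it was nearer to arp5d and ies6d in 44.6%.

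The most even difference between the sides was a small one in ribosomal protein genes. Of 56 kept genes of the small subunit, 46 were higher in arp5d and ies6d in all 4 cross pairs at any size (82.1%) and none was lower, with a median group difference of 0.27. Of 79 of the large subunit, 56 were higher (70.9%) and none was lower, with a median of 0.24. Sizes were small: 2 genes of the small subunit and none of the large one passed 1.25-fold. RPS28A lay at 26592 FPKM in ino80d, 28633 FPKM in arp8d, 37077 FPKM in arp5d and 42850 FPKM in ies6d, with WT at 39473 FPKM. RPL38 had 17243, 18087, 20993 and 22664 FPKM, listed as for RPS28A, with WT at 24362 FPKM. In both genes ino80d was the lowest strain and ies6d the highest mutant. Relative to the mean of the mutants, the median of the small subunit genes was -0.22 for ino80d, -0.05 for arp8d, 0.03 for arp5d and 0.21 for ies6d. The strains farthest from that mean were ino80d and ies6d. The median group difference of the small subunit genes was 0.17 without ies6d and 0.19 without ino80d, and that of the large subunit genes 0.16 without the one or without the other.

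The counts and the absolute size of this shift depended on scaling, whereas its size relative to all features hardly changed. Without rescaling, the medians lay 0.27 (small subunit) and 0.24 (large subunit) above that of all features. With each strain scaled to the same sum of FPKM, 3 of the 56 small subunit genes were higher in all 4 cross pairs and the median fell to 0.01, which is 0.26 above the median of all features. For the large subunit the count was 2 higher and 2 lower, with a median of -0.01, which is 0.23 above that of all features. By the same scaling 1.69% of all features were higher and 57.45% lower. With MFA1 left out of the sum, 14 small subunit genes were higher and 4 lower, and 22 large subunit genes were higher and 9 lower. Over all features 2.96% were then higher and 54.5% lower. Near-identical copies make the values of 23 small and 29 large subunit genes uncertain. Copies were searched over the gene span with any intron, so pairs matching over less than 50% of it were not counted.

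Level and length moved with the same difference. Among other protein genes of at least 500 FPKM, 176 of 352 were higher in arp5d and ies6d in all 4 cross pairs, with a median group difference of 0.17. Among those under 100 FPKM, 11.8% of 3627 were. The share was 51.9% for genes under 1000 bp at 500 FPKM or more, and 6.08% for genes of 2000 bp or more under 100 FPKM. The median ribosomal protein gene of the small subunit had 5771 FPKM and 766.5 bp. Lengths are spans in the genome from gene start to gene end, with any intron included, and not lengths of the RNA. The part of level and length in the difference of ribosomal protein genes was not tested.

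**Figure D4:**
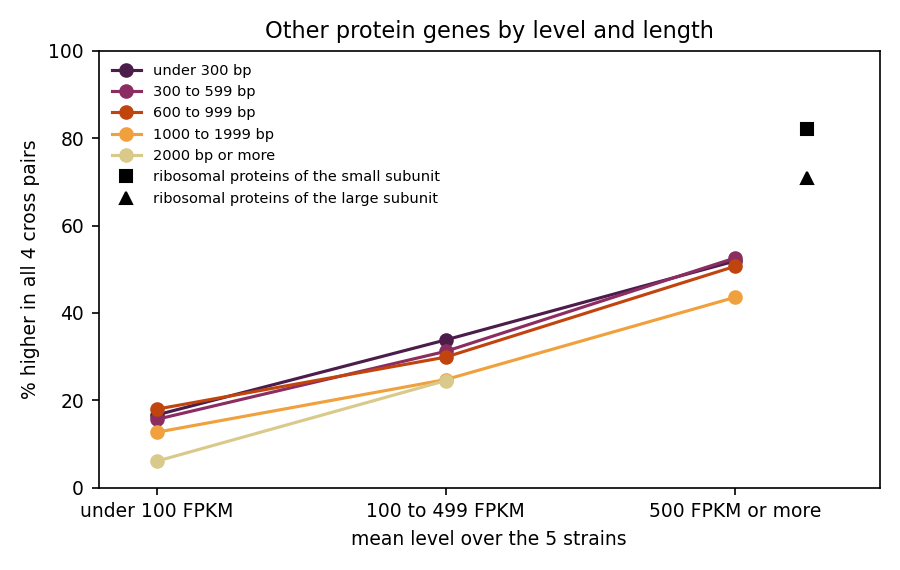
Share of protein genes outside the ribosomal proteins that were higher in arp5d and ies6d in all 4 cross pairs (vertical axis, %), by mean level (horizontal axis) and length (colours), for classes of at least 20 genes. Black symbols are the ribosomal proteins, at 82.1% and 70.9%; the share rises with level in every length class drawn and is about 50% at 500 FPKM or more, apart from 43.6% for 1000 to 1999 bp.

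Other gene groups were compared in the same way. Under equal-sum scaling the median of all kept features was -0.25, against which the scaled medians below are to be read. Of 10 histone genes, 7 were higher in all 4 cross pairs (70%, against 20.2% of all features) and none was lower (against 18.8%). Their median group difference was 0.21, or -0.05 under equal-sum scaling, 0.12 without ies6d and 0.36 without arp5d. Among protein genes outside the ribosomal proteins, 51.9% of those under 1000 bp at 500 FPKM or more were higher. The part of level and length in the histone list was not tested. HTA1, a copy of histone H2A, lay at 2368 FPKM in ino80d, 2992 FPKM in arp8d, 3830 FPKM in arp5d and 3677 FPKM in ies6d. Of 18 genes for trehalose and glycogen, 9 were higher (50%, against 20.2%) and none was lower (against 18.8%). Their median group difference was 0.23, or -0.02 under equal-sum scaling. Without ies6d it was 0.12 and without ino80d 0.13, and without arp5d or arp8d it was 0.37. GPH1, glycogen phosphorylase, lay at 34.2 FPKM in ino80d, 34.7 FPKM in arp8d, 43.1 FPKM in arp5d and 83.0 FPKM in ies6d, against 4.997 FPKM in WT. Here ies6d stood highest by far. Of 37 general stress genes, 7 were higher (18.9%, near the 20.2% of all features) and 2 lower (5.41%, against 18.8%). Their median group difference was 0.31, but 0.04 without ies6d, 0.61 without arp5d, 0.18 without ino80d and 0.06 under equal-sum scaling. Relative to the mean of the mutants, their median was 0.46 in ies6d and -0.11 in arp5d, with -0.01 in arp8d and -0.22 in ino80d, so ies6d alone stood high. HSP12, a membrane-protecting protein of this list, lay at 2584 FPKM in ino80d, 3040 FPKM in arp8d, 1638 FPKM in arp5d and 3477 FPKM in ies6d, so the sides overlapped. The 28 genes of the respiratory chain included 6 higher ones (21.4%, near the 20.2% of all features) and none lower, with a median of 0.26. Under equal-sum scaling none was higher (against 1.69% of all features) and 5 were lower (17.9%, against 57.45%). The median was then 0.00, which is 0.25 above that of all features, and 0.26 above it without this scaling. The median was 0.10 without ies6d, 0.08 without arp8d and 0.40 without ino80d.

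Genes for iron and copper uptake leaned the other way. Of 29 kept, 10 were lower in arp5d and ies6d in all 4 cross pairs (34.5%, against 18.8% of all features) and 1 was higher (3.45%, against 20.2%), with a median group difference of -0.15. Some other lists leaned the same way, such as nitrogen catabolite genes and permeases (30.3% lower, 12.1% higher) and replication and cell cycle (27.6% and 6.90%). Among protein genes under 100 FPKM outside the ribosomal proteins, 25.8% were lower and 11.8% higher. The part of level and length in the iron list was not tested. Under equal-sum scaling 16 were lower (55.2%, against 57.45% of all features) and the median was -0.40. Relative to the median of all features, that of the list was -0.15 with and without this scaling. Without ies6d, 7 were higher (24.1%, against 30.65% of all features) and 11 lower (37.9%, against 29.15%), with a median of -0.08. Without arp5d, 2 were higher (6.90%, against 35.8%) and 20 lower (69.0%, against 33.6%), with a median of -0.25. FIT1, a cell wall protein that retains siderophore iron, lay at 30.0 FPKM in ino80d, 56.1 FPKM in arp8d, 21.7 FPKM in arp5d and 11.96 FPKM in ies6d. The 1 higher gene was ATX1, the copper chaperone, at 350 FPKM in ino80d, 313 FPKM in arp8d, 471 FPKM in arp5d and 608 FPKM in ies6d. TIS11, which directs decay of iron-using transcripts, lay at 60.03, 60.6, 51.8 and 41.0 FPKM. FIT1 and ATX1 alone passed 1.25-fold.

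Among the genes for INO80 subunits themselves, apart from the deleted ones, IES4 alone passed 1.25-fold. IES4 lay at 279 FPKM in ino80d, 268 FPKM in arp8d, 354 FPKM in arp5d and 369 FPKM in ies6d, with WT at 330 FPKM, and had a group difference of 0.40. IES2, NHP10, IES1 and IES5 overlapped between the sides. Of 22 phosphate regulon genes 1 was higher (4.76%) and 3 were lower (14.3%) among the 21 kept. Of 12 genes for leucine, isoleucine and valine 1 was higher (8.33%) and none lower. Over all kept features 20.2% were higher and 18.8% lower, so both lists lay below these shares in both directions.

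**Figure D5:**
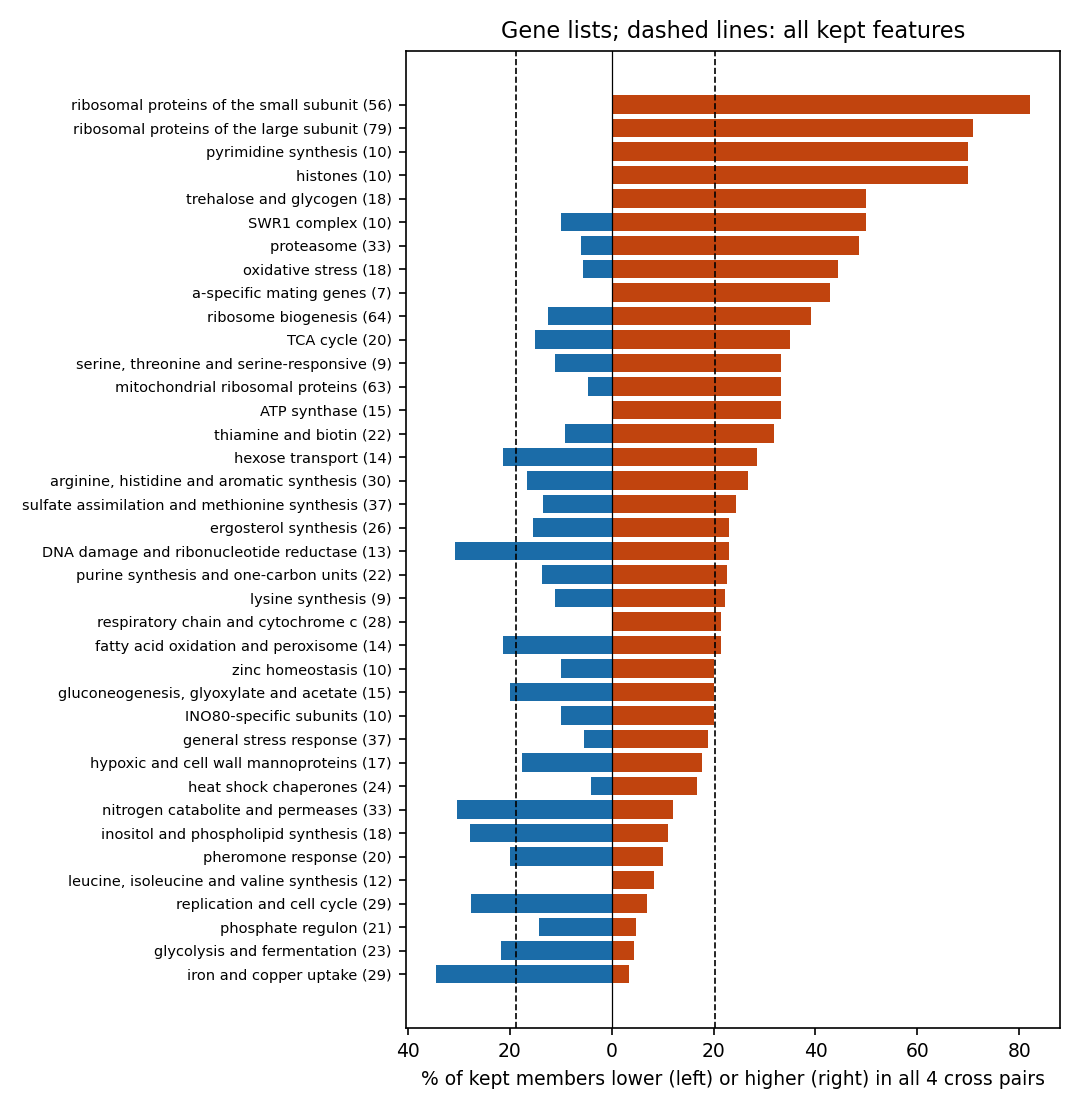
Share of kept members of each gene list that were higher (right, red) or lower (left, blue) in arp5d and ies6d in all 4 cross pairs at any size (horizontal axis, %), for the lists with at least 7 kept members (number in brackets). Dashed lines are the shares of all kept features, 20.2% higher and 18.8% lower; ribosomal proteins, histones and pyrimidine synthesis lie far to the right and iron and copper uptake to the left.

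Single chromosomes moved in single strains. The 85 kept genes of chromosome I had a median 0.41 above the mean of the mutants in ino80d, against -0.15 in arp8d, -0.14 in arp5d and -0.14 in ies6d. Their median group difference was -0.27, and 23 were lower in all 4 cross pairs (27.1%) while 0 were higher. The 159 genes of chromosome III had a median of 0.18 in ies6d, against -0.11 in arp8d, -0.06 in ino80d and -0.03 in arp5d, and 66 were higher in all 4 cross pairs (41.5%). Chromosome XI, which holds URA1, had a median of 0.08 in ies6d and a group difference of 0.06 over 307 genes. Without genes annotated on chromosomes I, III and XI, 5 features were called higher and 3 lower; features outside the annotation, such as YCR038W-A, stayed in. In this reduced set ino80d and arp8d were 1.5-fold apart in 379 features, still more than the 348 of ies6d and arp8d, the most distant cross pair.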

How the data were processed

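Poly(A) RNA of 5 strains was sequenced with the TruSeq v2 kit on a HiSeq2000, per the labels. The authors deposited 1 FPKM value per feature and strain for 2 biological replicates; TopHat2, Cuffdiff and genome build sacCer3 are named per the submitters' processing notes, while versions, annotation and scaling are not given in the sources used here. Low values do not fall on whole-read steps, so counts were not recovered.

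Of 6567 IDs, 5888 matched a locus tag and 67 a symbol of the R64 annotation, whose assembly is that of sacCer3, leaving 612 unmatched. Values were log2(FPKM + 1) without rescaling. No test was run, because each strain has 1 value. Members and 41 gene lists were chosen with earlier results of these data known. Named ORFs are the 15 with the largest smallest cross pair in each direction (at least 300 bp), list members past 1.5-fold, threshold neighbours, and markers; further list members were picked as examples after their values were seen. The 1.25-fold and any-size rules, the classes of level and length, and the paired CGG motif were added after seeing the data. Copies were searched with blastn 2.17.0 (90% identity over 50% of the length). Scripts used Python 3.11.15, numpy 2.4.6 and pandas 2.3.3 and were tested on simulated data. Alternatives covered pseudocount, filter, scaling, threshold and leaving out each strain.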

Additional observations from a re-analysis of the deposited data

How the results depend on the processing

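No paired analysis was possible because each strain has 1 value for both replicates. The 7 higher and 3 lower features were compared with each alternative. With a pseudocount of 0.1 FPKM, 6 were lower. Without a filter on the mean, 12 were higher and 5 lower. With strains scaled to the same sum of FPKM, 4 were higher and 21 lower, and with MFA1 left out of that sum (chosen after seeing the data) 4 and 23. At 2-fold, 2 were higher and 1 lower; at 1.25-fold, 53 and 41. Among ORFs of at least 300 bp, 3 were higher. Leaving out 1 strain gave between 22 and 89 higher and between 18 and 80 lower features, by construction more, since only 2 cross pairs remain: without arp5d 67 and 41, without ies6d 22 and 18, without ino80d 89 and 80, without arp8d 62 and 57. The other causes were not tested. The group difference of 3 of the 4 deleted genes changed sign without their own strain, IES6 to 0.14, INO80 to -0.11 and ARP8 to -0.16, whereas that of ARP5 was -0.09. Equal-sum scaling gave pyrimidine synthesis 2 higher genes (20%, against 1.69% of all features) and 3 lower ones (30%, against 57.45%). Depth is unknown, so which low features the counting error could move cannot be said.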
